A study of Mus musculus with 7 samples.

Results

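The genes of the mouse mitochondrial genome, and 4 nuclear pseudogenes on chromosome 1 that are copies of part of it, were examined in long-read RNA libraries of neural stem cells (NSCs). The members were all 37 genes whose symbol starts with mt- (13 protein-coding, 2 rRNA and 22 tRNA genes) and the unprocessed pseudogenes Gm28661, Gm28437, Gm10925 and Gm29216, which makes 41 of the 55335 genes counted. Of these 41, 21 had a count in any library, and 16 mt- genes and the 4 pseudogenes passed the filter on low counts. The 4 pseudogenes were chosen by their high counts in these same libraries, so their levels are given as a description and without a test. Polyadenylated RNA was sequenced as direct cDNA, without amplification, on nanopore flow cells in 2 batches that used successive versions of the library kit. All samples were FVB/N NSCs grown with EGF and bFGF, and they differed by genotype, wild-type (WT, 4 samples) or carrying Smchd1MommeD1, a null allele of Smchd1, a repressor of chromatin (Smchd1-null, 3 samples). Batch 1 held WT replicate 2 with Smchd1-null replicates 1 and 2, batch 2 held Smchd1-null replicate 3 with WT replicates 3 and 4, and the counts of WT replicate 1 are the sum of both batches. The labels do not say whether the replicates came from separate animals, so p-values measure the spread between these samples.

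The mitochondrial genome is a small circle that encodes core subunits of the respiratory chain and of ATP synthase, together with the rRNAs and tRNAs used to translate them. It is transcribed on both strands into long RNAs that are cut at the tRNAs that lie between the other genes, and most of the resulting mRNAs receive a short poly(A) tail. Pieces of mitochondrial DNA are also found inserted in the nuclear chromosomes, where annotation lists them as pseudogenes, and a read of such a sequence can be placed at either locus.

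The 4 copies lay side by side on the minus strand of chromosome 1 (GRCm38), within a run of 7 unprocessed pseudogenes that spans chr1:24611535-24616197. Read along that strand, the run had the order of the mitochondrial genome: Gm29216 matched mt-Co1, Gm28661 matched mt-Co2, Gm10925 matched mt-Atp6 and Gm28437 matched mt-Co3, followed by Gm28438 (mt-Nd3), Gm10222 (mt-Nd4l) and Gm28439 (mt-Nd4). Gm28661, Gm10925 and Gm28437 were identical to their mt- gene over 681, 678 and 783 aligned bases, which is 99.6%, 99.6% and 99.9% of that gene. Gm29216 covered the last 31.3% of mt-Co1, and 1 of its 483 aligned bases differed (99.8% identity). The stretches below were chosen to show how little sequence there is to tell the loci apart. The first pair holds the substitution A1066T, where positions count from 1 at the 5′ end of the mt-Co1 transcript, and the capital marks the base that differs. Its mt-Co1 stretch is at chrM:6390-6423 on the plus strand and its Gm29216 stretch at chr1:24616155-24616188 on the minus strand.
mt-Co1: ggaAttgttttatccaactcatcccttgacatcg
Gm29216: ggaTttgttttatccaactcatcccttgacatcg
For the 3 identical pairs, the last 60 aligned bases are given once each, with no capitals because no base differs. They lie at chrM:7634-7693, chrM:8545-8604 and chrM:9330-9389 on the plus strand, and at chr1:24614885-24614944, chr1:24613974-24614033 and chr1:24613189-24613248 on the minus strand, respectively.
mt-Co2 and Gm28661: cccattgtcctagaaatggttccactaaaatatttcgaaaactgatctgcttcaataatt
mt-Atp6 and Gm10925: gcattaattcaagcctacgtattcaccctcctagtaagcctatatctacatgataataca
mt-Co3 and Gm28437: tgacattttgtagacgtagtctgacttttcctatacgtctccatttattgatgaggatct

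The libraries held between 2741820 and 7736498 counts, and a count of 0 in a library allows a level of up to 0.388 to 1.09 CPM (counts per M, or mega, counts; 3 counts of the total, counting error only). Smchd1, the targeted gene, lay between 55.7 and 74.7 CPM of the scaled library size in WT and between 12.8 and 18.4 CPM in Smchd1-null samples, so each library matched its label. All 9 NSC markers had counts in every library, and the summed markers of microglia, endothelium and fibroblasts were each at 3.25 CPM or below. The 5 oligodendrocyte markers summed to 352 CPM in WT replicate 4 and to between 12.7 and 39.4 CPM in the other 6 libraries. The same library was also apart on astrocyte markers (908 CPM, against 212 to 435 CPM in the others) and NSC markers (12824 CPM, against 7839 to 9992 CPM), and it had the largest mt- share. The part of these marker differences in the results was not tested. The genotype difference in mt- share and the numbers of mt- genes called are also given without WT replicate 4.

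The mt- genes took 3.07%, 2.51%, 3.24% and 3.95% of the counts of WT replicates 1 to 4 and 2.42%, 2.53% and 3.10% of those of Smchd1-null replicates 1 to 3. The mean was 3.19% ± 0.594 (SD, n = 4) in WT and 2.69% ± 0.366 (SD, n = 3) in Smchd1-null samples, and the ranges of the genotypes overlapped. The shares sorted by batch instead. The 3 libraries of batch 1 lay between 2.42% and 2.53%, the 3 of batch 2 between 3.10% and 3.95%, and WT replicate 1, which holds reads of both, at 3.07% between them. Within batch 1 the Smchd1-null mean was 0.988 times the WT value, and within batch 2 the Smchd1-null value was 0.864 times the WT mean. That WT mean includes WT replicate 4 (3.95%), and WT replicate 3 (3.24%) was closer to Smchd1-null replicate 3 (3.10%). The difference between genotypes was -0.505 percentage points over all libraries and -0.252 without WT replicate 4. No test was made of this share, because it is a sum over chosen members. In bulk libraries, fewer mitochondria-rich cells and less mitochondrial RNA per cell cannot be told apart. The 4 copies added a further 1.89% to 2.76% of each library to the mt- share.

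**Figure D1:**
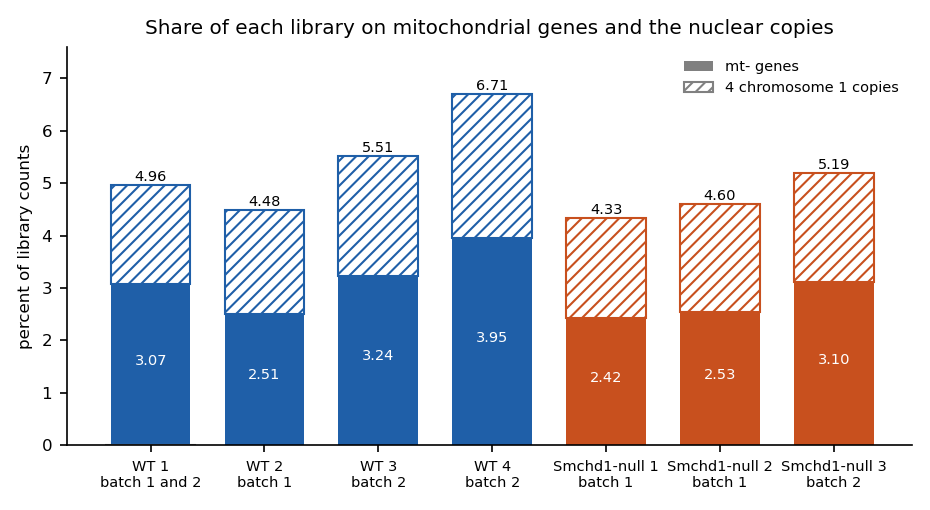
Percent of each library's counts on the 37 mt- genes (filled, value inside) and on the 4 chromosome 1 copies (hatched), with the sum above each bar. Blue bars are WT and orange bars Smchd1-null samples. The 3 batch 1 libraries have the lowest filled bars, between 2.42% and 2.53%.

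Reads were unevenly spread over the mt- genes. Counts were found in all 13 protein-coding and both rRNA genes in every library, whereas 20 of the 22 tRNA genes, which are 59 to 75 bases long, had no count in any library. Of the other two, mt-Tn had 1 count, in WT replicate 2. The proline tRNA gene mt-Tp, at chrM:15356-15422 on the minus strand, was the exception among tRNA genes, with 333, 435, 268 and 826 counts in WT replicates 1 to 4 and between 244 and 734 in the Smchd1-null samples. It lies at the end of the annotated genes, and because no use of strand in the counting is stated, reads of the opposite strand over it cannot be told apart from its own. Its sequence is shown because no other tRNA gene had more than 1 count.
mt-Tp: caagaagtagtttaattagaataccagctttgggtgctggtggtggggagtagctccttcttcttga

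mt-Cytb, the apocytochrome b subunit of complex III, was the most counted member, with 40880, 37101, 34410 and 66990 counts in WT replicates 1 to 4 and between 20340 and 57077 in Smchd1-null samples. It held 30.4% ± 2.18 (SD, n = 7) of all mt- counts. The 3 subunits of complex IV (cytochrome c oxidase; mt-Co1, mt-Co2 and mt-Co3) together held 39.2% ± 2.53, the 7 subunits of complex I (NADH dehydrogenase; mt-Nd1 to mt-Nd6 and mt-Nd4l) 23.7% ± 2.65, and the 2 subunits of ATP synthase (mt-Atp6 and mt-Atp8) 4.40% ± 0.668 (SD, n = 7 for each). The 2 rRNA genes held 1.97% ± 0.484 of mt- counts in these poly(A)-selected libraries. All these shares leave out reads placed on chromosome 1. The copies of mt-Co1, mt-Co2, mt-Co3 and mt-Atp6 held 722863 further counts, whereas mt-Cytb has no copy in the run. The shares of complex IV and ATP synthase therefore miss more reads than that of complex III.

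Levels were compared between genes per kilobase of the deposited gene length. The order depends on that scale, which raises short genes such as mt-Tp. Across genes log2-CPM was only weakly related to length in these unfragmented libraries (Spearman rho from 0.0169 to 0.124 within a library). This is a description across genes that are not independent. On the scale per kilobase mt-Co2 (7930 ± 1752 CPM per kilobase, SD, n = 7) and mt-Cytb (7903 ± 1218) were highest, with mt-Co2 above mt-Cytb in 3 of 7 libraries, whereas before division by length mt-Cytb had the higher CPM in all 7. mt-Co3 (4340 ± 502) came next, below the range of mt-Cytb and above that of mt-Nd1 (2503 ± 323) in every library. mt-Atp6, mt-Co1, mt-Nd2 and mt-Nd4 followed with means from 1895 down to 1636 CPM per kilobase, and each of the first 3 was above the next in 4 of 7 libraries. mt-Tp followed at 1419 ± 338. mt-Nd3 lay at 889 ± 519, mt-Rnr1 at 374 ± 168, mt-Nd5 at 202 ± 105 and mt-Rnr2 at 157 ± 71.6 CPM per kilobase. mt-Nd6, the one protein-coding gene on the minus strand of the annotation, had 75.2 ± 23.9 CPM per kilobase. As for mt-Tp, reads of the opposite strand over mt-Nd6 cannot be told apart from its own. mt-Atp8 (55.5 ± 13.1) and mt-Nd4l (46.1 ± 15.4) were lowest. Both share bases with the start of the gene that follows them, mt-Atp8 43 bases with mt-Atp6 and mt-Nd4l 7 bases with mt-Nd4. How reads over both of such genes were counted is not given in the sources used here.

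When the counts of each copy were added to its mt- gene, the order at the top changed. mt-Co2 with Gm28661 then reached 17552 ± 3508 CPM per kilobase, mt-Co3 with Gm28437 12581 ± 1178 and mt-Atp6 with Gm10925 9013 ± 660, and mt-Cytb, for which there is no copy in the run, dropped to the fourth place.

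**Figure D2:**
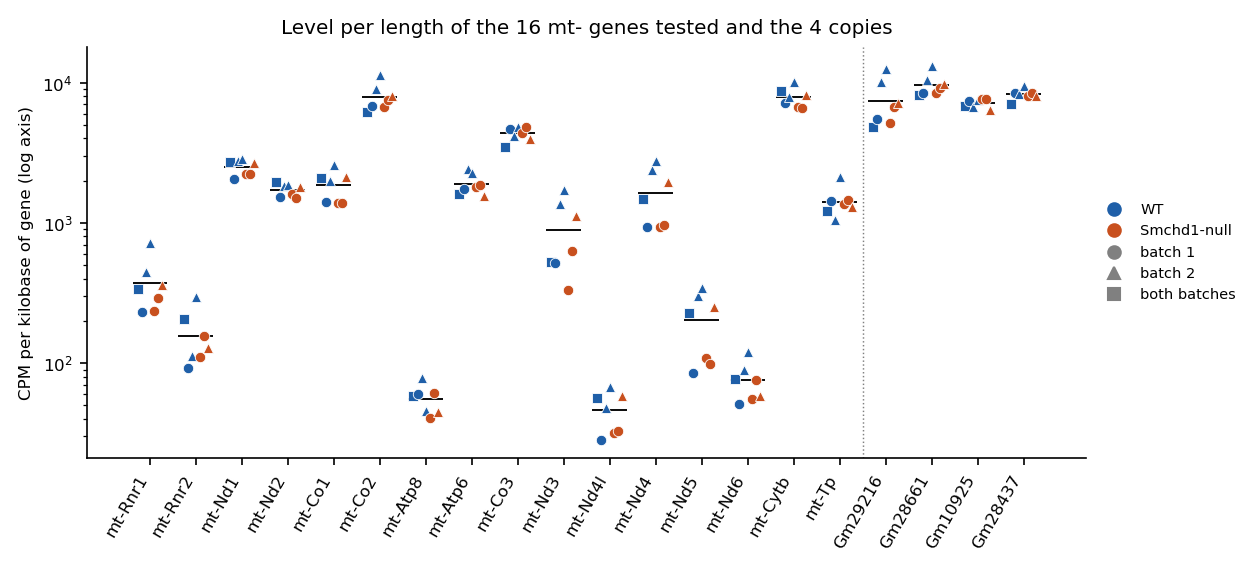
CPM per kilobase of gene (log axis) of the 16 mt- genes that passed the filter on low counts, in the order of the mitochondrial genome, and of the 4 copies, right of the dotted line. Each point is a library, coloured by genotype with the batch as its shape, and the bar is the mean of 7 libraries. The triangles of batch 2 lie above the circles of batch 1 for mt-Nd3, mt-Nd4 and mt-Nd5, and no gene separates the colours.

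The 4 copies held 722863 counts beside 996883 on all mt- genes, or 42.0% of the members' counts. In single libraries this share was 38.1%, 44.1%, 41.3% and 41.1% in WT replicates 1 to 4 and 44.1%, 45.0% and 40.2% in Smchd1-null replicates 1 to 3, with Wilson 95% intervals no wider than 43.8% to 44.4%. A scan of all other annotated transcripts for stretches of at least 100 bases with at least 90% identity to an mt- gene, chosen after seeing the data, found 17 nuclear pseudogenes with such a stretch. The 4 copies held 96.4% of the counts on those. The smallest of the 4, Gm29216, had 124452 counts in all, and the next pseudogene outside the rule, the mt-Nd3 copy Gm28438, had 13427.

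The share of its pair's counts (copy plus mt- gene) that a copy took is given for each library. Gm28661 held 56.9%, 55.3%, 53.7% and 53.8% of the counts of the mt-Co2 pair in WT replicates 1 to 4 and 55.7%, 54.6% and 54.8% in Smchd1-null replicates 1 to 3. For Gm28437 and mt-Co3 the share was 67.0%, 64.5%, 66.3% and 66.0% in WT, and 64.8%, 63.6% and 66.7% in Smchd1-null samples. Both shares stayed above 50% in each library, so more reads of these sequences were counted on chromosome 1 than on the mitochondrial genome. Gm10925 took the largest share, with 80.8%, 80.8%, 73.2% and 76.8% of the mt-Atp6 pair in WT and 80.8%, 80.5% and 80.3% in Smchd1-null samples. The values of WT replicates 3 and 4 lay below all others. On the mitochondrial genome mt-Atp6 shares 44 bases with mt-Atp8 and mt-Co3, whereas Gm10925 overlaps no annotated gene. How reads over several genes were counted is not given, so reads of this pair may have been counted unlike at the 2 loci. The part of this in the share of Gm10925 was not tested. For Gm29216, which covers only the end of mt-Co1, the shares were 42.4%, 55.8%, 61.7% and 60.8% in WT and 54.1%, 60.4% and 51.9% in Smchd1-null samples. WT replicate 1 was the lowest here and was the one library in which the mt-Co1 gene had more counts than its copy. The mean shares of the genotypes were 54.9% ± 1.47 and 55.0% ± 0.577 for Gm28661, 66.0% ± 1.05 and 65.0% ± 1.58 for Gm28437, 77.9% ± 3.67 and 80.5% ± 0.218 for Gm10925, and 55.2% ± 8.91 and 55.5% ± 4.41 for Gm29216 (WT first, SD, n = 4 and n = 3). Among the 3 other pseudogenes of the run, Gm28438 held 55.8% and Gm10222 50.6% of the counts of their pairs over all libraries, and Gm28439, which matches the first 876 bases of mt-Nd4 and lacks its end, 3.04%.

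**Figure D3:**
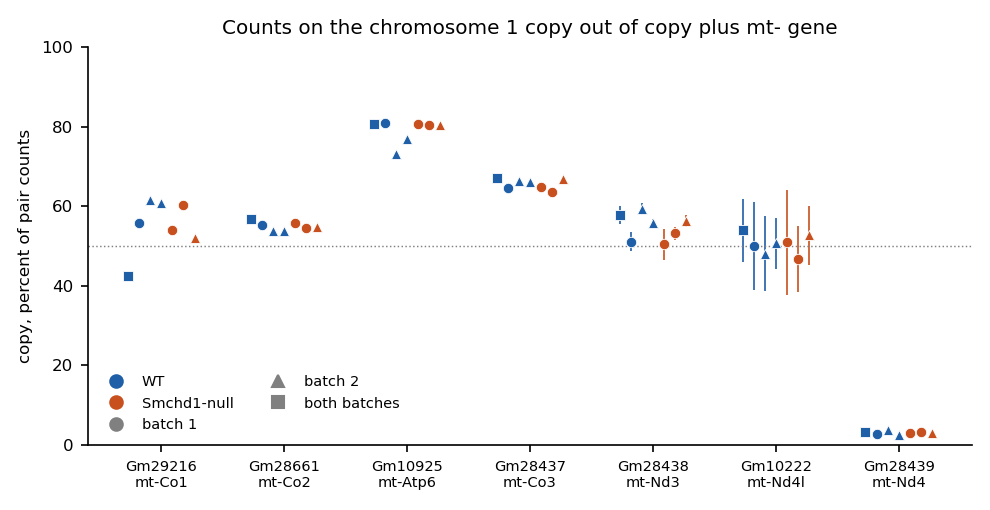
Counts on each pseudogene of the chromosome 1 run as percent of the counts of the pseudogene plus its mt- gene, for each library, with Wilson 95% intervals (counting error only). Colours are genotypes and shapes batches, and the dotted line is at 50%. Gm10925 lies between 73.2% and 80.8% and Gm28439 at 3.65% or below.

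Across the 7 libraries the CPM of Gm28661 followed that of mt-Co2 closely (Pearson r = 0.992, Spearman rho = 0.893, and r = 0.951 in the 5 libraries left without WT replicates 3 and 4, the farthest from the median of mt-Co2). For Gm28437 and mt-Co3, r was 0.828 and rho 0.857, and r was 0.609 without WT replicates 1 and 4. For Gm29216 and mt-Co1, r was 0.681 and rho 0.464, with r = 0.625 without Smchd1-null replicates 1 and 2. Gm10925 and mt-Atp6 had r = 0.0281 and rho = 0.464, and r = 0.979 without WT replicates 3 and 4, the libraries in which mt-Atp6 was highest. With raw counts r lay between 0.906 and 0.998 for the 4 pairs, but the libraries differ in depth, which copy and mt- gene share. These coefficients describe 7 libraries of 2 genotypes and 2 batches and were not tested.

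**Figure D4:**
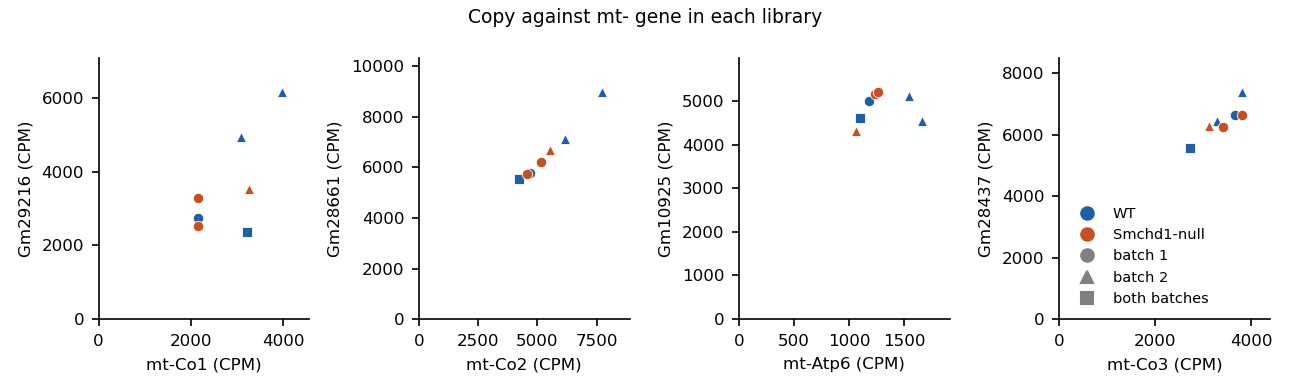
CPM of each of the 4 copies against CPM of its mt- gene, 1 point per library, with both axes starting at 0, colours for genotype and shapes for batch. In the mt-Atp6 panel WT replicates 3 and 4 lie to the right of the other 5 libraries, which follow a line.

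The study was designed to compare Smchd1-null with WT cells. None of the 16 mt- genes that passed the filter on low counts changed between the genotypes in limma's test at an adjusted p of 0.05 or of 0.25, the 2 thresholds used here. Over all 13305 genes tested the share called was 0.0902% at 0.05 and 1.08% at 0.25. The fitted log2 fold change (Smchd1-null over WT) was negative for 14 of the 16 genes, with a median of -0.26 beside a median of 0.00 over all genes. At an unadjusted p under 0.05 there were 5 genes in limma (mt-Rnr1, mt-Co1, mt-Nd4, mt-Nd5 and mt-Cytb), where 13.9% of all genes were. That fit weights the libraries by quality, from 0.447 (WT replicate 4) to 2.03 (Smchd1-null replicate 1). There were 0 genes in limma without these weights (5.03% of all genes), 0 in edgeR's quasi-likelihood test (5.07%) and 0 in DESeq2 (4.46%). These alternatives also called none.

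Among the 16, the complex I gene mt-Nd4 had the smallest adjusted p in this comparison and mt-Nd5, also of complex I, the largest difference. mt-Nd5 was at 418, 155, 552 and 621 CPM in WT replicates 1 to 4 and at 199, 179 and 462 CPM in Smchd1-null replicates 1 to 3. WT replicate 2 lay below all 3 Smchd1-null libraries, so the groups overlapped. The log2 fold change of mt-Nd5 was -0.90 ± 0.328 (SE; limma, adjusted p = 0.30), and it was -0.60 in limma without sample quality weights. mt-Nd4 was at 2046, 1294, 3292 and 3825 CPM in WT and at 1292, 1324 and 2709 CPM in Smchd1-null libraries, with a log2 fold change of -0.74 ± 0.265 (SE; limma, adjusted p = 0.297). mt-Nd3 had the same fitted log2 fold change of -0.74, with a larger SE of 0.377. In all 3 genes the batch 1 libraries of both genotypes lay below the batch 2 libraries of both. mt-Cytb averaged 9683 ± 1398 CPM over the 4 WT and 8185 ± 987 CPM over the 3 Smchd1-null libraries (± SD), with a log2 fold change of -0.27 ± 0.116 (SE; limma, adjusted p = 0.340). No mt- gene separated the genotypes without overlap. The share over all genes was also small, at 2.52% higher and 3.01% lower in Smchd1-null samples. The copies had fitted log2 fold changes of -0.30 ± 0.230 (Gm29216), -0.11 ± 0.131 (Gm28661), 0.10 ± 0.106 (Gm10925) and 0.02 ± 0.109 (Gm28437), given with their SE as a description.

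These genotype values moved with the batch, with gene length and with single libraries. With the share of batch 2 as a covariate, mt-Nd5 had a log2 fold change of -0.04 and mt-Nd4 of -0.12, and the median of the 16 genes was -0.05. Within batch 1 the difference of mean log2-CPM (Smchd1-null minus WT) was negative for 6 of the 16 genes, with a median of 0.04. Within batch 2 it was negative for 15 of 16, with a median of -0.33. Each batch held a single library of one genotype. The batch 2 values include WT replicate 4 and were not computed without it. With the trend of log2-CPM on gene length removed, the median was -0.48, all 16 genes were negative and 13 had an unadjusted p under 0.05 (12.1% of all genes), with none called.

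Single libraries moved the values both ways. Leaving out Smchd1-null replicate 1 brought mt-Nd5 to -0.52, mt-Nd4 to -0.38 and mt-Nd3 to -0.08, and leaving out Smchd1-null replicate 2 brought mt-Nd5 to -0.42 and mt-Nd4 to -0.39. Leaving out WT replicate 3 brought mt-Nd4 to -0.46 and mt-Nd3 to -0.35. No mt- gene was called in these 3 fits. Leaving out WT replicate 2 gave 1 mt- gene at 0.05 (mt-Nd5, log2 fold change -1.25, adjusted p = 0.0417) and 10 at 0.25, where 0.194% and 22.7% of all genes were called. Leaving out Smchd1-null replicate 3 gave 1 mt- gene at 0.05 (mt-Nd5, -1.16, adjusted p = 0.0459) and 7 at 0.25, where 1.2% and 23.5% of all genes were called. Calls in the last 2 fits thus rose over all genes. Each of the last 2 omissions takes away the sole library of its genotype that belongs to its batch alone. Without WT replicate 4, no mt- gene was called.

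The difference between the batches was larger. Both genotypes were present in each batch, so batch was tested with genotype as a second term in the 6 libraries that belong to a single batch. Of the 16 mt- genes, 9 were higher in batch 2 at an adjusted p of 0.05 (limma) and none was lower. Over the 13107 genes tested, 5.52% were called higher in batch 2 and 11.3% were called in either direction. Kit version and flow cell changed together between batches, and the 6 libraries of this fit are different samples in each, so these cannot be told apart.

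The 4 largest batch differences were in complex I genes that are neighbours on the mitochondrial genome, mt-Nd3, mt-Nd4l, mt-Nd4 and mt-Nd5, between positions 9459 and 13565. mt-Nd5 was at 155, 199 and 179 CPM in batch 1 (WT replicate 2 and Smchd1-null replicates 1 and 2) and at 552, 621 and 462 CPM in batch 2 (both of its WT libraries, then Smchd1-null replicate 3). The batches did not overlap, and the log2 fold change of mt-Nd5 (batch 2 over batch 1) was 1.55 ± 0.126 (SE; limma, adjusted p = 0.000135). mt-Nd3 was at 181, 116 and 218 CPM in batch 1 and at 477, 598 and 391 CPM in batch 2, a log2 fold change of 1.41 ± 0.188 (adjusted p = 0.00243). mt-Nd4 was at 1294, 1292 and 1324 CPM in batch 1 and at 3292, 3825 and 2709 CPM in batch 2, a log2 fold change of 1.22 ± 0.0958 (adjusted p = 0.000135). The batch 1 libraries of mt-Nd4 thus agreed closely while those of batch 2 were spread. mt-Nd4l, with 25 to 117 counts in a library, had a log2 fold change of 0.90 ± 0.206 (adjusted p = 0.0191).

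Elsewhere in the genome the differences were smaller. The 12S rRNA gene mt-Rnr1 had a log2 fold change of 0.79 ± 0.163 (adjusted p = 0.0124) and lay between 219 and 278 CPM in batch 1 and between 347 and 682 CPM in batch 2. The complex IV genes divided, as mt-Co1 (0.63 ± 0.0871, adjusted p = 0.00276) and mt-Co2 (0.34 ± 0.0984, adjusted p = 0.0458) were higher in batch 2, whereas mt-Co3 lay at 3655, 3403 and 3803 CPM in batch 1 and 3285, 3813 and 3128 CPM in batch 2, with -0.13 ± 0.0855 (adjusted p = 0.333). mt-Nd1 (0.35, adjusted p = 0.0196) and mt-Cytb (0.29, adjusted p = 0.0438) were higher in batch 2 by less. mt-Nd2, mt-Rnr2, mt-Nd6, mt-Atp6, mt-Atp8 and mt-Tp did not pass the test, with log2 fold changes from 0.30 down to -0.10. Complex I took 20.3% to 21.9% of mt- counts in the batch 1 libraries and 24.7% to 27.2% in those of batch 2, and complex IV 40.5% to 42.6% and 38.1% to 39.1%.

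WT replicate 1 took no part in that fit. For the 10 mt- genes without overlap between the batches, all higher in batch 2 (15.3% of all genes were), it lay between the batches for 3 genes, at or above the batch 2 minimum for 5, and at or below the batch 1 maximum for 2. mt-Nd5 was at 418 CPM and mt-Nd4 at 2046 CPM in that library, between the batches, while mt-Nd3 at 184 CPM was within the range of batch 1.

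The batch call of mt-Nd5 held in every alternative that was run, with adjusted p from 7.4e-06 to 0.0471. The number of mt- genes called varied with the number of calls over all genes. It was 4 in edgeR's quasi-likelihood test (1.83% of all genes called) and 4 without sample quality weights (1.59%), in each case mt-Co1, mt-Nd3, mt-Nd4 and mt-Nd5. It was 4 without Smchd1-null replicate 1 (2.82% of all genes) and 5 without Smchd1-null replicate 2 (4.9%). Without WT replicate 2 and without Smchd1-null replicate 3, 3 genes (0.0222%) and 1 gene (0.00742%) were called in all, of which mt-Nd5 was 1 each time, while the log2 fold changes of mt-Nd4 (1.06 and 1.46) and mt-Nd3 (1.25 and 1.56) were about as large as before. There were 10 mt- genes called with the length trend removed (8.07% of all genes), where the median rose from 0.32 to 0.61, and 7 with all 7 samples and the share of batch 2 as the term (12.4%). Without WT replicate 4, 9 mt- genes were called (10.2%).

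The batch differences of the copies are given beside those of their mt- genes as a description. With the copy first, the fitted log2 fold changes were 0.60 and 0.63 for Gm29216 and mt-Co1, 0.29 and 0.34 for Gm28661 and mt-Co2, -0.17 and 0.06 for Gm10925 and mt-Atp6, and 0.01 and -0.13 for Gm28437 and mt-Co3. For the pseudogenes of the run outside the rule they were 1.74 and 1.41 for Gm28438 and mt-Nd3, 1.04 and 0.90 for Gm10222 and mt-Nd4l, and 1.26 and 1.22 for Gm28439 and mt-Nd4. The mean summed CPM of mt-Nd3 and Gm28438 was 3.20 times as high in batch 2 as in batch 1. For mt-Co3 and Gm28437 it was 0.998 times as high.

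**Figure D5:**
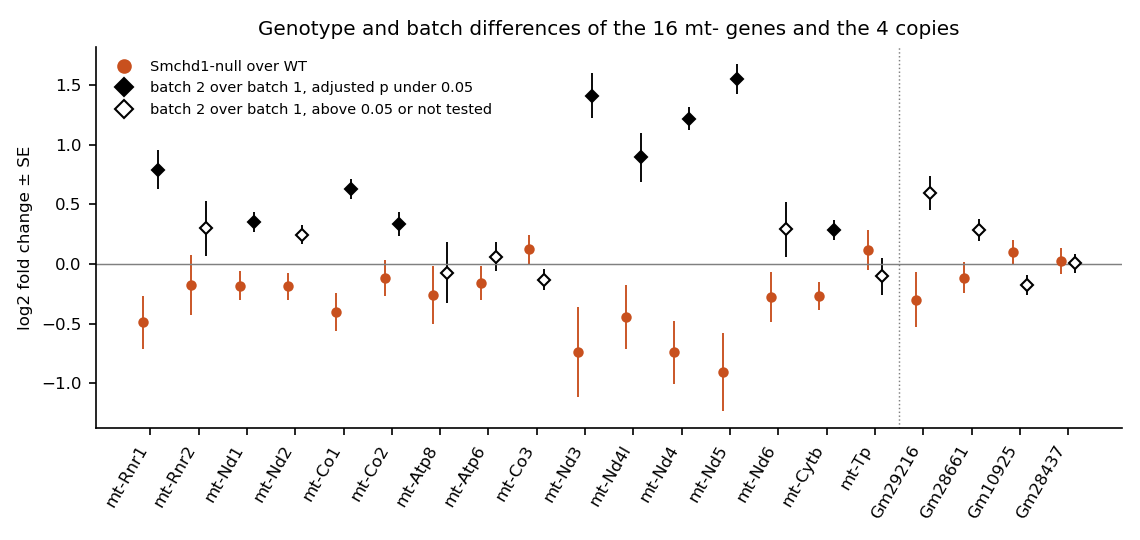
Fitted log2 fold changes with SE for Smchd1-null over WT (orange circles, 7 libraries) and batch 2 over batch 1 (black diamonds, 6 libraries), for the 16 mt- genes in genome order and the 4 copies, right of the dotted line, which were not tested. Filled diamonds mark the 9 genes with an adjusted p under 0.05. The diamonds of mt-Nd3, mt-Nd4 and mt-Nd5 lie above 1.2, and no circle marks a gene called between the genotypes.

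Nuclear genes that make, cut, modify or degrade mitochondrial RNA were followed as a list of 40 genes, of which 39 were in the files and 35 passed the filter. None changed between the genotypes in limma at 0.05 (0.0902% of all genes did) or at 0.25 (1.08%). At an unadjusted p under 0.05 there were 3 in limma (13.9% of all genes) and 0 in edgeR's quasi-likelihood test (5.07%). The fitted log2 fold changes of the 35 genes ran from -0.66 to 0.47 with a median of -0.06, beside 0.00 over all genes. The highest per length was Mrpl12, a protein of the mitochondrial ribosome that also binds the mitochondrial RNA polymerase, with 242 ± 60.6 CPM in WT and 299 ± 51.1 CPM in Smchd1-null samples (log2 fold change 0.39 ± 0.155 SE, adjusted p = 0.323). Mrpl12 was also the one gene of the list called between batches, being lower in batch 2 (-0.43 ± 0.121, limma, adjusted p = 0.0402). Over all genes 11.3% were called between batches. Hsd17b10, a subunit of mitochondrial RNase P, had a log2 fold change between genotypes of -0.0048, Rexo2, an exonuclease for short RNAs, of -0.01, Grsf1, a protein of the mitochondrial RNA granules, of -0.06, and Fastk, an RNA-binding protein that acts on mt-Nd6 RNA, of 0.12. The other genes with an unadjusted p under 0.05, named after their values were seen, were Mterf3, a repressor of mitochondrial transcription (-0.36, adjusted p = 0.333), and Fastkd1 (-0.51, adjusted p = 0.328). Without WT replicate 2 or Smchd1-null replicate 3, 5 and 4 genes of the list were called at 0.25, in fits that called 22.7% and 23.5% of all genes.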

How the data were processed

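The deposited values were whole-number counts per gene and library, not normalised, with a gene length. To make them the authors base-called and demultiplexed nanopore reads with Guppy, aligned them to mm10 with minimap2 2.17 and counted primary alignments with featureCounts on Gencode M23. Use of strand and the handling of reads over several genes are not given in the sources used here. A read of identical loci is counted where its primary alignment was placed. The authors added up the 2 runs of WT replicate 1, which cannot be taken apart here.

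Symbols, coordinates (1-based) and transcript sequences came from Gencode M21 on the same GRCm38 build (55154 of 55335 identifiers matched with the version ignored). The members and lists were chosen with earlier results of these data known. Genes named were the protein-coding and rRNA mt- genes, mt- tRNA genes that passed the filter, the pseudogenes of the chromosome 1 run, the 5 machinery genes with most counts per length, and Smchd1. The sets of nuclear marker genes checked were those of NSCs, neurons (350 to 418 CPM summed), astrocytes, oligodendrocytes, microglia, endothelium and fibroblasts.

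filterByExpr kept 13305 genes. Library sizes were the counts on kept genes, scaled by TMM. The test followed the study's methods: limma 3.58.1 (R 4.3.3), voomWithQualityWeights with genotype as the term and 7 samples, two-sided, with Benjamini-Hochberg adjustment over all genes tested. The batch test added batch in 6 samples (13107 genes). Alternatives were edgeR 4.0.16, DESeq2 1.42.0, other scalings, filters and covariates, and leaving out each library. Leaving out libraries of the batch test was added after seeing the data. Copies were aligned to mt- transcripts, and BLAST 2.17.0 searched other transcripts. Of the fits, only the limma test between genotypes was tried on simulated data, and the batch test was not. Library depth was 2741820 to 7736498 counts. Counts of replicates differed by more than sampling noise in each pair.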

Additional observations from a re-analysis of the deposited data

How the results depend on the processing

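At 0.05, the number of mt- genes called between genotypes was 0 in each alternative except for the leave-one-out fits, which gave 0 to 1 (0 to 10 at 0.25). For the nuclear list these fits gave 0 to 5 genes at 0.25. The replicate block gave 0 mt- genes called. Same-numbered samples correlated at -0.0378, 0.363 and 0.0940 (replicates 1, 2 and 3). The pairs numbered 2 and 3 also share a batch, so a link by number cannot be told apart from batch in them. Between batches, 9 mt- genes were called, against 4 in edgeR, 4 without sample quality weights and 1 to 9 with a library left out. The difference in mt- share (Smchd1-null minus WT) lay between -0.733 and -0.252 percentage points with a library left out, and that in the share of member counts on the copies between 0.949 and 3.4 points. The cause of these shifts was not tested.

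None of the genes whose log2 fold change turned sign was called. Between genotypes, with the batch share covariate, mt-Rnr2 was at 0.0704, mt-Nd1 at 0.0246, mt-Co3 at -0.0091 and mt-Nd4l at 0.0567. With the replicate block, mt-Rnr2 was at 0.20, mt-Co2 at 0.0321 and mt-Nd4l at 0.0458. With the length trend removed, mt-Co3 was at -0.11 and mt-Tp at -0.32, and with the replicate block added mt-Rnr2 at 0.15, mt-Co3 at -0.0357 and mt-Tp at -0.0933. mt-Tp was at -0.0887 in edgeR, -0.0879 in DESeq2 and -0.0448 without sample weights, and mt-Atp6 at 0.0399 with copy counts added. The leave-one-out values of mt-Atp6 ran from -0.31 to 0.0114, of mt-Co3 from -0.0015 to 0.17 and of mt-Tp from -0.0516 to 0.22. Between batches, with the length trend removed, mt-Atp8 was at 0.33, mt-Co3 at 0.14 and mt-Tp at 0.35, and mt-Tp was at 0.025 in edgeR. The leave-one-out values ran from -0.0475 to 0.98 for mt-Rnr2, -0.30 to 0.0835 for mt-Atp8, -0.22 to 0.44 for mt-Atp6, -0.23 to 1.04 for mt-Nd6 and -0.26 to 0.16 for mt-Tp.

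Each genotype had 1 or 2 libraries within a batch, and mt-Nd4l and mt-Atp8 rested on fewer counts than the other protein-coding mt- genes.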
